A study of Mus musculus with 42 samples.

Results

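Levels of 40 mouse genes whose products build ribosomes were followed across sorted and unsorted epithelium of the pylorus, small intestine and colon. They were chosen by symbol, and each was read from the probe set with the highest mean over all arrays among those that carry only its symbol. Of the 40 named genes, 38 had such a probe set, out of 22180 genes measured in this way. Fbl and Tsr1 lie on probe sets that carry several symbols and have no value here. By role, 7 of the 38 belong to RNA polymerase I and the nucleolar scaffold, 6 to the core of small nucleolar ribonucleoproteins (snoRNPs), 12 to the small subunit processome and 13 to large subunit assembly.

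Ribosome assembly starts in the nucleolus, where RNA polymerase I transcribes the long precursor of ribosomal RNA. The snoRNPs guide methylation and pseudouridylation of that RNA, the small subunit processome folds and cleaves its 18S part, and a further set of factors assembles the large subunit. The transcription factor Myc is known to drive many of these genes, and their output usually follows the rate of cell growth. In the gastrointestinal epithelium, gland and crypt bases hold Lgr5-expressing stem cells, and dividing progenitors lie above them.

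Total RNA from untreated adult mice with a minimum age of 7 to 8 weeks, not selected for sex, was measured on 42 Affymetrix arrays in 15 groups. Pyloric cells of the Lgr5-EGFP-DTR line (DTR) were sorted into Lgr5Hi, Lgr5Lo and Lgr5Neg cells, with 3 arrays each, and those of wildtype mice (WT) by an antibody to the water channel Aqp5 into Aqp5Pos and Aqp5Neg cells, with 4 arrays each. The Lgr5-EGFP-IRES-CreERT2 line (IRES) gave Lgr5Hi and Lgr5Lo cells of pylorus (4 arrays each), small intestine (2 each) and colon (3 each). It also gave whole pylorus (2 arrays), whole small intestine (1), small intestine crypt (2) and whole colon (2). In both lines EGFP is expressed from the Lgr5 locus, so the sort follows the activity of that promoter. The labels name Lgr5Hi and Aqp5Pos cells as stem cells and Lgr5Lo cells as differentiated. They state biological replicates without saying whether animals were pooled. The titles place 9 arrays in the DTR line, while their mouse model field names the IRES line; the titles were followed. The study asked which genes mark pyloric stem cells among gastrointestinal populations.

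The sort genes followed the labels. Lgr5 measured 8.73, 8.66 and 8.81 in DTR Lgr5Hi arrays, 6.82, 6.80 and 6.15 in Lgr5Lo arrays and 4.41, 4.51 and 4.87 in Lgr5Neg arrays (log2 intensity), and Aqp5 measured 8.26 to 9.15 in WT Aqp5Pos arrays against 6.95 to 7.41 in Aqp5Neg arrays. Some arrays stood apart. The array labelled whole colon 1 carried gastric genes at high level, with Gkn1 at 13.12 and the colonocyte gene Car1 at 2.50, against 4.92 and 11.61 in whole colon 2. The arrays labelled small intestine crypt had Lgr5 at 4.81 and 5.04 and the villus enzyme gene Alpi at 11.95 and 11.97, against 7.09 and 10.50 in the array labelled whole small intestine. These values run against the labels, so the crypt and whole labels may be exchanged, and both are given below as labelled. Among the sorted arrays, Lgr5Lo replicate 3 of the IRES pylorus, Lgr5Hi replicate 1 of the DTR line and Aqp5Pos replicate 1 of WT had the lowest mean of the 38 genes in their groups, at 6.43, 6.36 and 6.19. The results below that rest on them are given without them as well. Lgr5Lo replicate 1 of the IRES pylorus had the highest mean over all genes, 4.91, where the other arrays lay at 4.67 to 4.76. It also had the highest mean of the 38 genes in its group, 7.12, and the count of the IRES pyloric sort without it is given below. Array values are relative within each array, so the total RNA of a cell was not measured, and a smaller share of cells that use a gene cannot be told apart from less RNA of it in each cell.

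The mean over the 38 genes was lower in Lgr5Hi or Aqp5Pos arrays in the pylorus and higher in Lgr5Hi arrays in the gut. It was 6.36, 6.76 and 6.81 in DTR Lgr5Hi arrays, 7.02, 7.48 and 7.20 in Lgr5Lo arrays and 7.35, 7.41 and 7.47 in Lgr5Neg arrays, so the Lgr5Hi arrays lay below all of the others. In WT pylorus it was 6.19 to 6.71 in Aqp5Pos arrays against 7.02 to 7.11 in Aqp5Neg arrays, without overlap. In the IRES line it was 6.28 to 6.64 in pyloric Lgr5Hi arrays against 6.43 to 7.12 in Lgr5Lo arrays, which overlapped through Lgr5Lo replicate 3 alone. In the small intestine, Lgr5Hi arrays measured 7.44 and 7.48 against 6.79 and 7.18 in Lgr5Lo arrays, and in the colon 6.94, 6.92 and 7.22 against 6.86, 6.72 and 6.74, with the Lgr5Hi arrays above in both organs. These means were not tested, because the genes were chosen with results of the series known.

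**Figure D1:**
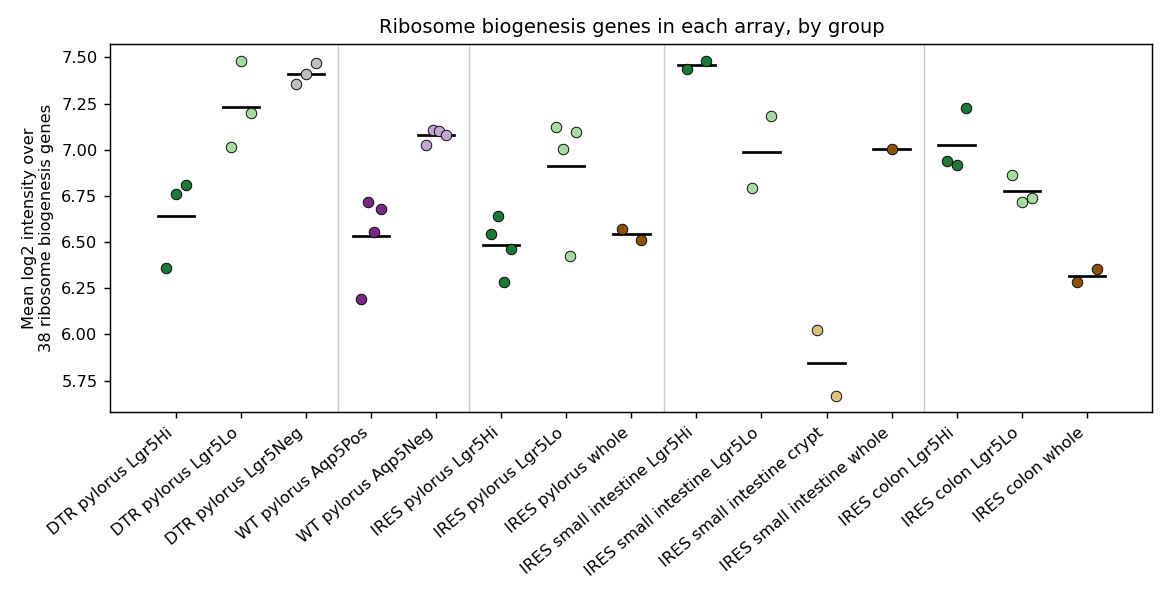
Mean log2 intensity of the 38 ribosome biogenesis genes (vertical axis) in each of 42 arrays, by group (horizontal axis). Points are arrays and bars are group means. The small intestine Lgr5Hi arrays lie at 7.44 to 7.48, the DTR Lgr5Hi arrays at 6.36 to 6.81 and the arrays labelled small intestine crypt at 5.67 and 6.03.

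Across the 15 group means the genes spanned between 0.66 (Bop1) and 2.51 (Gnl3) on the log2 scale, with a median span of 1.79. The highest group mean fell in small intestine Lgr5Hi cells for 15 genes, in DTR Lgr5Neg cells for 14 and in WT Aqp5Neg cells for 3. For 32 of the 38 genes the lowest mean fell in the arrays labelled small intestine crypt, for 4 in WT Aqp5Pos cells, for 1 in DTR Lgr5Hi cells and for 1 in whole colon. The arrays labelled crypt also had the highest level of the enterocyte and colonocyte list, 10.03 and 9.91, and the lowest G1/S list of the small intestine, 5.80 and 5.51. The part of these in the low ribosome biogenesis values was not tested.

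Between DTR Lgr5Hi and DTR Lgr5Neg cells, 33 of 38 ribosome biogenesis genes fell and 0 rose in limma at an adjusted p under 0.05, while 9.48% of all genes fell and 8.84% rose. All 38 differences were below 0, between -1.35 and -0.41, with a median of -0.74 against 0.02 over all genes. The 3 arrays of each group did not overlap for 36 of the 38, all lower in Lgr5Hi cells, against 16.1% of all genes.

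The snoRNP core had the lowest median of the 4 roles, with 5 of 6 genes lower and a median of -1.18; the roles were not tested against each other. Dkc1 encodes dyskerin, the pseudouridine synthase of box H/ACA snoRNPs. Its level was 5.31, 5.96 and 6.09 in Lgr5Hi arrays against 7.12, 7.18 and 7.12 in Lgr5Neg arrays. The Lgr5Hi arrays lay at least 1 log2 unit below the tight Lgr5Neg cluster, and the fall was 1.35 ± 0.21 (SE), or 2.55-fold, with an adjusted p of 0.000645. Nhp2, which binds the same guide RNAs, measured 7.00, 7.48 and 7.58 in Lgr5Hi arrays against 8.32, 8.68 and 8.57 in Lgr5Neg arrays. It also parted without overlap and fell by 1.17 ± 0.18 (adjusted p = 0.000462). Nop56 and Nop58 hold the box C/D snoRNPs that guide methylation. Nop56 measured 6.22, 7.00 and 7.08 in Lgr5Hi arrays against 7.84, 7.87 and 8.14 in Lgr5Neg arrays, and Nop58 7.33, 8.06 and 8.28 against 8.93, 9.16 and 9.27. Both were lowest in Lgr5Hi replicate 1, and they fell by 1.19 ± 0.22 (adjusted p = 0.00188) and 1.23 ± 0.23 (adjusted p = 0.00234). Gar1, a small H/ACA protein, fell by 0.46 (adjusted p = 0.0293). Rrp9, which binds the U3 guide RNA, did not pass at -0.41 (adjusted p = 0.101).

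Because these genes moved together, their promoters are shown. RefSeq windows of the GRCm38.p6 build, 250 bases before to 50 after the start, were held for 34 of the 38 genes. The first 4 sequences belong to the largest falls between DTR Lgr5Hi and Lgr5Neg cells, and the other 3 to the largest falls among genes with CACGTG in the stretch shown. That hexamer is the E-box that Myc and its partners are known to bind. Each run has 150 bases, 120 before and 30 after the start, on the plus strand. Capitals mark CACGTG and CGGAAG or its reverse complement CTTCCG, the core of ETS factor sites. The stretches lie at chrX:75095734-75095883, chr1:59684886-59685035, chr2:130274292-130274441, chr11:51619653-51619802, chr8:106893520-106893669, chr17:71616095-71616244 and chr6:125131763-125131912, in the order printed.
Dkc1: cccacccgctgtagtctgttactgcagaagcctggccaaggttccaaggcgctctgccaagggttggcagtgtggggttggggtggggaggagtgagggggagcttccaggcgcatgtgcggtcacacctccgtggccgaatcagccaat
Nop58: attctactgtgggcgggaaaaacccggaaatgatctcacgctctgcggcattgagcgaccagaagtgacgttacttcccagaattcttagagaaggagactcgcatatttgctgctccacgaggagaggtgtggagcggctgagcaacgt
Nop56: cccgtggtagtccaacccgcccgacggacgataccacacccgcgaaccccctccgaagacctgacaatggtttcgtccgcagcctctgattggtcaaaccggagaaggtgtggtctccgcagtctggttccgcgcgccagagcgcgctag
Nhp2: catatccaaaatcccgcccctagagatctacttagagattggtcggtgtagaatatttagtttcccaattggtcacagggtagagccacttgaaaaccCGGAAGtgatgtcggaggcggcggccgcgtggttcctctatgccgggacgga
Utp4: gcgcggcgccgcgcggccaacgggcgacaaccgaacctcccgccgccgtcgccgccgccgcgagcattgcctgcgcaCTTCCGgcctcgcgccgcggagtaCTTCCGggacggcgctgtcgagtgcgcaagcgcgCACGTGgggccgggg
Wdr43: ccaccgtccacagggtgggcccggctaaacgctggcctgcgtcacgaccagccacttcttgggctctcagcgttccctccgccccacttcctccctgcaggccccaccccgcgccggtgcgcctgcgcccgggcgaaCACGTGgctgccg
Nop2: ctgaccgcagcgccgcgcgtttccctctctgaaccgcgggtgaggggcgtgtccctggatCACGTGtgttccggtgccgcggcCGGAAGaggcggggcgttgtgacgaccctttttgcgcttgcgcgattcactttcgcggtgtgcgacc

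Counted over the 300-base windows on either strand, CACGTG was found in 6 of the 34 genes (17.6%), against 8.20% of 16990 genes with a window. It lay before the start in 1 of the 6 (Nop2) and after it in 5 (Mybbp1a, Wdr43, Utp4, Utp20 and Pes1). Over all genes it lay before the start in 1168 of the 1393 that held it, so the higher share of the members came from bases after the start. CGGAAG was found in 18 (52.9%) against 21.4% of all, GGGCGG in 25 (73.5%) against 46.8%, and CCAAT in 12 (35.3%) against 38.6%. CACGTG reads the same on both strands, and CGGAAG can share 3 letters with GGGCGG. Dkc1, Nop58 and Nop56, with the largest falls, hold neither capital motif in their stretches. These are letter matches and were not tested.

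RNA polymerase I and nucleolar scaffold genes had 5 of 7 lower and a median of -0.62. Ddx21, a nucleolar RNA helicase, measured 8.42, 8.25 and 8.55 in Lgr5Hi arrays against 9.34, 9.56 and 9.59 in Lgr5Neg arrays. Those arrays did not overlap, and it fell by 1.09 ± 0.16 (adjusted p = 0.000414). Nolc1, a chaperone of snoRNPs, fell by 0.98 ± 0.18 (adjusted p = 0.00211). Ncl (nucleolin) measured 9.48, 9.98 and 9.87 in Lgr5Hi arrays against 10.55, 10.37 and 10.25 in Lgr5Neg arrays, and Npm1 (nucleophosmin) 10.75, 10.80 and 10.74 against 11.39, 11.38 and 11.36. The Npm1 arrays of each group were nearly level, and both genes fell, by 0.61 (adjusted p = 0.0173) and 0.62 (adjusted p = 0.00271). Npm1 has near-identical copies in the genome that can share its probes. The catalytic subunits of RNA polymerase I did not pass. Polr1a measured 5.99, 6.35 and 6.32 in Lgr5Hi arrays against 6.67, 6.70 and 6.55 in Lgr5Neg arrays, a difference of -0.42 ± 0.14 (adjusted p = 0.0616), and that of Polr1b was -0.57 ± 0.19 (adjusted p = 0.0592).

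All 12 small subunit processome genes fell, with a median of -0.77 and a range between -0.88 (Utp4) and -0.53 (Wdr75). Heatr1, a subunit that also aids rRNA transcription, measured 5.97, 6.06 and 6.08 in Lgr5Hi arrays against 6.87, 6.95 and 6.89 in Lgr5Neg arrays. The groups did not overlap, and it fell by 0.87 ± 0.14 (adjusted p = 0.000688). Noc4l, a partner of Nop14 in the particle, measured 5.92, 6.33 and 6.31 in Lgr5Hi arrays against 6.96, 7.09 and 7.06 in Lgr5Neg arrays. Its groups stood apart by more than the range within either, and it fell by 0.85 ± 0.16 (adjusted p = 0.00203). Bms1, a GTPase, Nat10, an RNA acetyltransferase, and the helicase Ddx10 fell by 0.69, 0.67 and 0.78.

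Of the large subunit genes 11 of 13 fell, with a median of -0.74. Gnl3 (nucleostemin), a nucleolar GTPase first described in stem cells, measured 7.47, 7.68 and 8.03 in Lgr5Hi arrays against 8.44, 8.75 and 9.10 in Lgr5Neg arrays. No Lgr5Hi array reached the lowest Lgr5Neg array, and Gnl3 fell by 1.04 ± 0.22 (adjusted p = 0.0054). Pes1, Bop1 and Wdr12 form a complex needed to process the large subunit RNA. Wdr12 fell by 0.98 ± 0.19 (adjusted p = 0.00308) and Bop1 by 0.47 ± 0.15 (adjusted p = 0.0485), while Pes1 differed by -0.49 ± 0.17 and did not pass (adjusted p = 0.0731). Pes1 was called in none of the 14 comparisons. The transcriptional regulator and assembly factor Noc2l did not pass either, at -0.42 ± 0.14 (adjusted p = 0.0634).

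Without Lgr5Hi replicate 1 the count was 21, and without Lgr5Neg replicate 3 it was 19. A fit over all 42 arrays together called 11.

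Markers of other cells moved with this contrast. The 7 genes of the pit cell list all fell, and their mean was 6.39 to 7.40 in Lgr5Hi arrays against 11.28 to 11.56 in Lgr5Neg arrays. Of the tuft cell list 8 of 11 rose, with means of 6.65 to 7.66 in Lgr5Hi arrays against 5.60 to 6.35 in Lgr5Neg arrays. Gland mucous genes rose for 5 of 7 and chief and parietal genes for 3 of 5. Of the enteroendocrine list 2 rose and 3 fell among 11, and of the Paneth list 1 rose and 1 fell among 5. Goblet genes fell for 3 of 6, enterocyte and colonocyte genes for 2 of 12 and immune genes for 2 of 11. Of the fibroblast and smooth muscle list 0 of 10 fell (0 higher and 0 lower at an unadjusted p under 0.05). Of the endothelial list 0 of 7 fell (0 higher and 1 lower unadjusted). Of the squamous list 1 of 7 rose. The part of pit, tuft or mucous cells in the fall of the ribosome biogenesis genes was not tested.

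**Figure D2:**
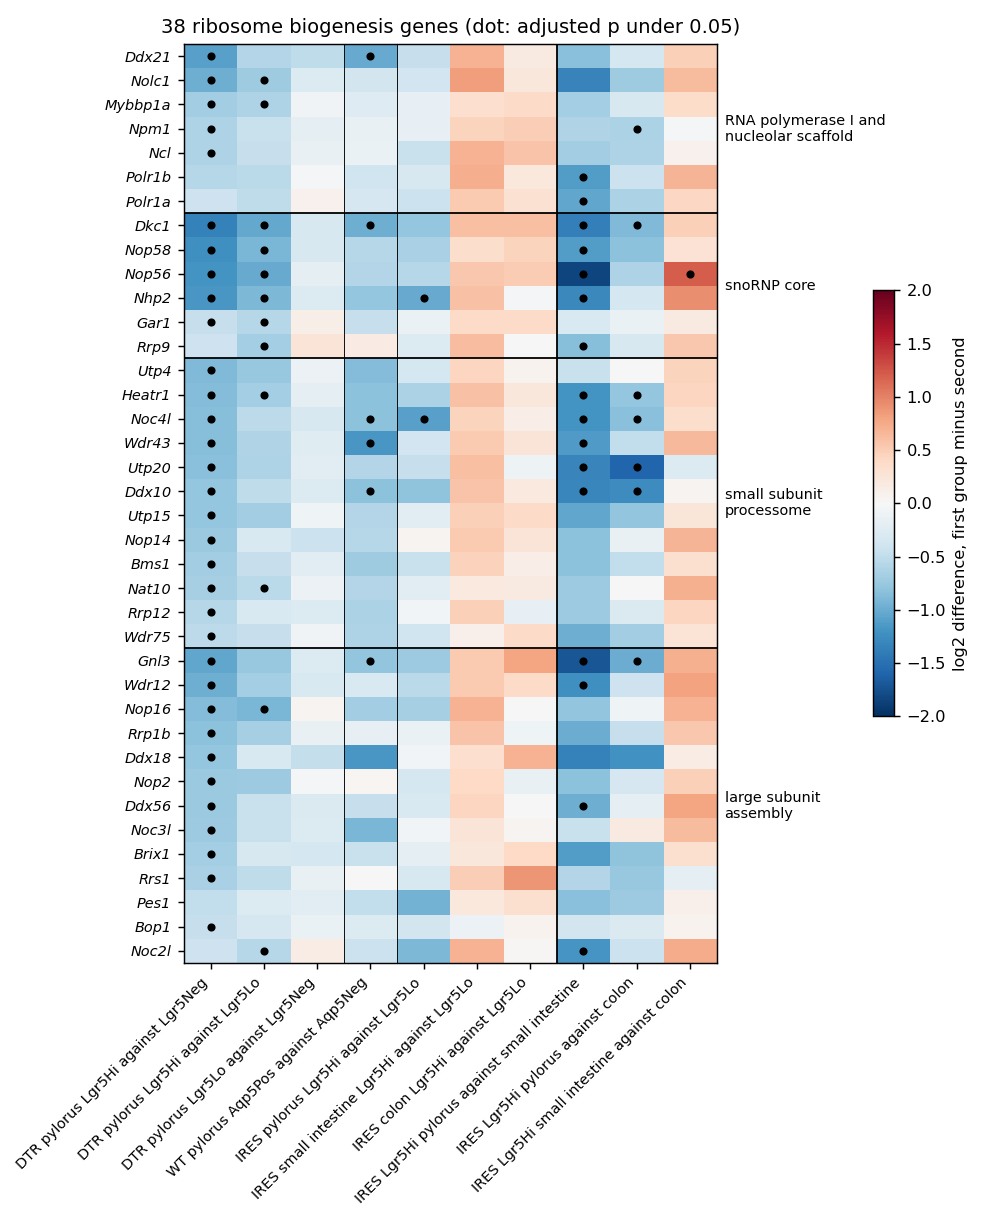
The log2 difference of each of the 38 genes (rows, grouped by role) in 10 comparisons (columns), first group minus second, in blue where lower and red where higher. Black dots mark an adjusted p under 0.05 in limma. The column for DTR Lgr5Hi against Lgr5Neg cells has 33 dots and is blue throughout, while the small intestine column for Lgr5Hi against Lgr5Lo cells has none and is red in 37 of 38 rows.

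Set against Lgr5Lo cells of the same line, Lgr5Hi cells had 12 of 38 genes lower and 0 higher, against 2.94% of all genes lower and 2.02% higher. The median was -0.57 against 0.01 over all genes. The groups did not overlap for 30 genes, all lower in Lgr5Hi cells, against 11.3% of all genes. All 6 snoRNP genes were among the 12, with a median of -0.90. Dkc1 measured 5.31, 5.96 and 6.09 in Lgr5Hi arrays against 6.40, 7.06 and 6.99 in Lgr5Lo arrays and fell by 1.03 ± 0.21 (adjusted p = 0.0156). The Lgr5Lo arrays were wider than the Lgr5Neg ones but did not reach the Lgr5Hi arrays. Rrp9 and Noc2l, which were not called against Lgr5Neg cells, measured 5.17, 5.69 and 5.52 and 6.63, 6.83 and 7.04 in Lgr5Hi arrays against 6.15, 6.21 and 6.04 and 7.26, 7.43 and 7.52 in Lgr5Lo arrays. Neither overlapped, and they fell by 0.67 ± 0.16 (adjusted p = 0.0291) and 0.57 ± 0.14 (adjusted p = 0.0399). The other calls were Nop56 (-1.01), Nop58 (-0.91), Nhp2 (-0.90), Gar1 (-0.57), Nop16 (-0.92), Nolc1 (-0.71), Heatr1 (-0.67), Mybbp1a (-0.62) and Nat10 (-0.54). Nop16 acts in large subunit assembly and Mybbp1a binds nucleolar chromatin. Ncl, Npm1, Polr1a and Polr1b measured -0.47 ± 0.16, -0.44 ± 0.12, -0.50 ± 0.14 and -0.53 ± 0.19 and did not pass, at adjusted p-values between 0.053 and 0.155.

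The count of 12 rested on single arrays. Without Lgr5Lo replicate 2 or without Lgr5Lo replicate 3 it was 0, and without Lgr5Hi replicate 1 it was 4. Pit cell genes were again all lower, with means of 6.39 to 7.40 in Lgr5Hi arrays against 9.94 to 10.63 in Lgr5Lo arrays, and 9 of 11 tuft genes were higher. Of the chief and parietal list 2 of 5 rose and 2 fell, with differences between -3.56 and 2.32. Gland mucous genes rose for 3 of 7, and goblet genes fell for 2 of 6. Cell cycle genes were lower too, 16 of 20 G1/S and 21 of 21 G2/M genes. The part of any of these lists in the result was not tested.

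Between Lgr5Lo and Lgr5Neg cells 0 of the 38 genes fell and 0 rose in limma, against 2.2% of all genes called either way. At an unadjusted p under 0.05, 3 of the 38 were lower and 0 higher, against 1311 lower and 1638 higher of 22180 genes. The lower count was thus near the share over all genes. The median difference was -0.21, or -0.091 without Lgr5Lo replicate 1 and -0.32 without Lgr5Lo replicate 2. Ncl, Npm1, Polr1a and Polr1b differed by -0.14 ± 0.16, -0.17 ± 0.12, 0.08 ± 0.14 and -0.03 ± 0.19. The sign of Polr1b turned without Lgr5Lo replicate 3 or Lgr5Neg replicate 3. These 3 DTR contrasts share arrays, so their values are set side by side and are not independent.

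Sorting on Aqp5 in WT pylorus gave 6 lower and 0 higher of 38 in Aqp5Pos against Aqp5Neg cells, against 2.25% of all genes lower and 0.546% higher. The median was -0.57 against 0.06 over all genes, and the 4 arrays of each group did not overlap for 11 genes, all lower, against 6.68% of all genes. Wdr43, a processome subunit, had 6.86, 7.70, 7.52 and 7.46 in Aqp5Pos arrays against 8.39, 8.65, 8.53 and 8.62 in Aqp5Neg arrays. The highest Aqp5Pos array stayed well below the lowest Aqp5Neg array, and the fall was 1.16 ± 0.20 (adjusted p = 0.0105). Ddx21 measured 7.66, 8.10, 8.12 and 7.66 in Aqp5Pos arrays against 9.03, 8.92, 8.61 and 8.99 in Aqp5Neg arrays and fell by 1.00 ± 0.19 (adjusted p = 0.0153). Dkc1 measured 5.54, 5.88, 6.19 and 5.41 in Aqp5Pos arrays against 6.69, 6.63, 6.90 and 6.68 in Aqp5Neg arrays. Its Aqp5Neg arrays were again narrow and its Aqp5Pos arrays spread, and it fell by 0.97 ± 0.20 (adjusted p = 0.0229). Noc4l, Ddx10 and Gnl3 fell by 0.82, 0.81 and 0.79 (adjusted p = 0.0331, 0.0402 and 0.0282).

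The nucleolar scaffold genes Ncl and Npm1 did not pass in this sort. Ncl measured 9.72, 9.98, 10.21 and 10.01 in Aqp5Pos arrays against 9.98, 10.11, 10.25 and 10.10 in Aqp5Neg arrays, and Npm1 11.46, 11.20, 11.50 and 11.39 against 11.63, 11.57, 11.44 and 11.50. The groups overlapped for both, and the differences were -0.13 ± 0.17 and -0.15 ± 0.16 (adjusted p = 0.681 and 0.63), with their sign turned by quantile normalization. Polr1a and Polr1b differed by -0.33 ± 0.30 and -0.39 ± 0.30 (adjusted p = 0.548 and 0.484). Quantile normalization left 1 of the 6 calls, and leaving out single arrays gave 1 to 7, with 3 without Aqp5Pos replicate 1, 2 without Aqp5Neg replicate 3 and 1 without Aqp5Neg replicate 1, 2 or 4. Pit cell genes all fell, with means of 9.52 to 10.45 in Aqp5Pos arrays against 11.54 to 11.69 in Aqp5Neg arrays. Here 7 of 11 tuft genes fell as well, with means of 4.38 to 4.63 in Aqp5Pos arrays against 5.68 to 6.13 in Aqp5Neg arrays, where the DTR contrast had tuft genes higher in its Lgr5Hi cells. Chief and parietal means were lower, 8.45 to 9.72 in Aqp5Pos arrays against 9.79 to 10.81 in Aqp5Neg arrays. Gland mucous means were higher, 10.50 to 10.64 against 9.56 to 9.95. The part of any of these lists in the result was not tested.

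In the IRES pylorus, Lgr5Hi against Lgr5Lo cells gave 2 lower and 0 higher, against 0.884% of all genes lower and 0.604% higher. The median was -0.38 against -0.04 over all genes, and the groups parted downward for 8 genes, against 2.95% of all genes. Noc4l measured 5.61, 6.17, 5.10 and 5.77 in Lgr5Hi arrays against 6.41, 7.02, 6.63 and 6.91 in Lgr5Lo arrays, and Nhp2 7.70, 7.37, 8.34 and 7.16 against 8.70, 8.86, 8.58 and 8.49. Neither overlapped, though Noc4l replicate 2 and Nhp2 replicate 3 of the Lgr5Hi arrays came close to the Lgr5Lo values. They fell by 1.08 ± 0.23 (adjusted p = 0.0199) and 1.01 ± 0.24 (adjusted p = 0.0319). Same-numbered arrays deviated together here (r = 0.10 to 0.30), though the labels state no pairing. The fit with the number as a block called 5 genes lower. Leaving out Lgr5Lo replicate 3, the array with the lowest mean of its group, gave 5 calls and a median of -0.59. Leaving out Lgr5Lo replicate 2 gave 0, leaving out Lgr5Lo replicate 1 or Lgr5Hi replicate 2, 3 or 4 gave 1, and leaving out whole colon 1 gave 3.

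Ncl was even in IRES pyloric Lgr5Hi arrays and scattered in the other group, with 9.71, 9.58, 9.65 and 9.72 in Lgr5Hi arrays against 10.72, 10.16, 9.69 and 9.89 in Lgr5Lo arrays. It differed by -0.45 ± 0.21 (adjusted p = 0.342). Npm1, Polr1a and Polr1b differed by -0.16 ± 0.17, -0.43 ± 0.28 and -0.32 ± 0.23, and none passed (adjusted p = 0.767, 0.548 and 0.616). Pes1 differed by -0.95 ± 0.25, with groups that did not overlap and an adjusted p of 0.0632. Dkc1 differed by -0.78 ± 0.21 (adjusted p = 0.0616). Pit cell means were 9.47 to 11.61 in Lgr5Hi arrays against 11.61 to 11.94 in Lgr5Lo arrays, and those of the tuft list 5.30 to 7.64 against 6.46 to 7.56. Gland mucous means were 10.54 to 11.15 in Lgr5Hi arrays against 9.71 to 10.26 in Lgr5Lo arrays, without overlap, and 2 of 7 genes rose. Enteroendocrine means were 6.71 to 7.23 against 7.26 to 8.32, and 1 of 11 genes fell (6 unadjusted). Intestinal lists were also present and uneven between arrays. Enterocyte and colonocyte means were 4.37 to 5.63 against 5.56 to 6.78, with 0 of 12 genes called (5 lower unadjusted). Goblet means were 5.24 to 7.44 against 5.61 to 8.28, and Paneth means 4.56 to 7.45 against 4.44 to 7.96. Their part in the result was not tested.

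**Figure D3:**
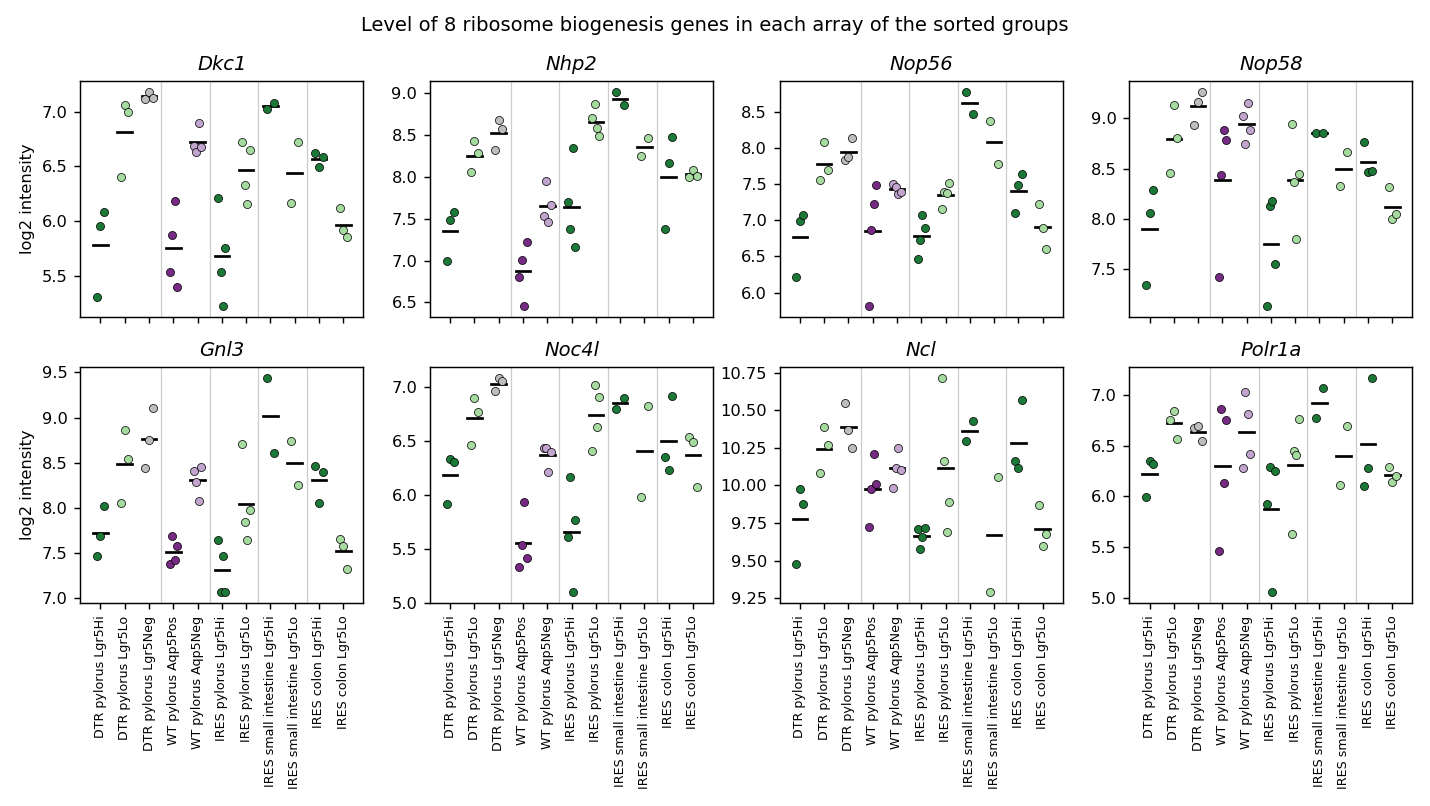
Log2 intensity (vertical axes, each with its own range) of 8 ribosome biogenesis genes in every array of the 11 sorted groups (horizontal axes). Points are arrays and bars are group means. For Dkc1 the DTR Lgr5Hi arrays lie at 5.31 to 6.09 and the Lgr5Neg arrays at 7.12 to 7.18, and the small intestine Lgr5Hi arrays at 7.02 to 7.08 and the Lgr5Lo arrays at 6.17 to 6.72.

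Over the 4 pyloric contrasts of Lgr5Hi with Lgr5Lo or Lgr5Neg cells and of Aqp5Pos with Aqp5Neg cells, 35 of the 38 genes were below 0 in each. Nop14, Nop2 and Rrp9 were the exceptions. Dkc1, Nhp2 and Noc4l were called lower in 3 of the 4, 12 genes in 2, 20 genes in 1, and Pes1, Polr1a and Polr1b in 0. A pair of these contrasts shares the DTR Lgr5Hi arrays. The matching counts over all genes were not made, so these counts do not show whether the 38 genes recur more than other genes.

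In the small intestine no gene passed between Lgr5Hi and Lgr5Lo cells. The count was 0 higher and 0 lower of 38 in limma, against 0.185% of all genes called either way. At an unadjusted p under 0.05, 4 of the 38 were higher and 0 lower, against 453 higher and 588 lower of 22180 genes. The difference was above 0 for 37 of 38 genes, with a median of 0.51 against 0.02 over all genes, and Bop1 was the exception at -0.12. Without Lgr5Lo replicate 1 the median was 0.27. With 2 arrays each, the groups did not overlap for 30 genes, all higher in Lgr5Hi cells, against 19.7% of all genes. Ncl measured 10.30 and 10.43 in Lgr5Hi arrays against 9.29 and 10.05 in Lgr5Lo arrays, and Dkc1 7.02 and 7.08 against 6.17 and 6.72. The Lgr5Hi arrays were close together and above both Lgr5Lo arrays, of which replicate 1 was the lower. The differences were 0.69 ± 0.29 (adjusted p = 0.905) and 0.61 ± 0.29 (adjusted p = 1). Npm1, Polr1a and Polr1b differed by 0.45 ± 0.24, 0.52 ± 0.39 and 0.73 ± 0.33, with adjusted p-values between 0.994 and 1. Enterocyte and colonocyte means were 6.54 and 8.42 in Lgr5Hi arrays against 8.89 and 9.23 in Lgr5Lo arrays, and enteroendocrine means 6.64 and 6.78 against 8.30 and 7.84. Their part in the result was not tested.

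The colon was similar in sign and smaller in size, with 0 higher and 0 lower of 38 in limma, where 0% of all genes were called. At an unadjusted p under 0.05, 5 of the 38 were higher and 0 lower, against 410 higher and 590 lower of all genes. The difference was above 0 for 33 genes (median 0.22), without overlap for 12 against 7.06% of all genes, and 4 of the 38 changed sign when each array's median was subtracted. Ncl measured 10.16, 10.12 and 10.57 in Lgr5Hi arrays against 9.87, 9.60 and 9.68 in Lgr5Lo arrays, and Gnl3 8.46, 8.06 and 8.39 against 7.66, 7.58 and 7.32. Neither overlapped, and the differences were 0.57 ± 0.24 and 0.78 ± 0.28 (adjusted p = 1 and 1). Npm1, Polr1a and Polr1b differed by 0.50 ± 0.20, 0.30 ± 0.32 and 0.21 ± 0.27 (adjusted p = 1 for each). Polr1a rested on Lgr5Hi replicate 3 and was -0.023 without it. That array also had Car1 at 4.71, against 10.04 and 10.30 in the other Lgr5Hi arrays of colon, and without it the median over the 38 genes was 0.15. Goblet means were 10.16 to 11.19 in Lgr5Hi arrays against 11.68 to 11.89 in Lgr5Lo arrays, and enteroendocrine means 5.13 to 5.26 against 5.58 to 6.02, both without overlap, with 0 of 6 and 0 of 11 genes lower in limma (0 and 3 unadjusted). The part of these in the result was not tested.

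Whether the sort acted differently by organ was tested as a difference of differences in the IRES line. For pylorus against small intestine 0 of the 38 passed lower and 0 higher at an adjusted p under 0.05, where 0.0316% of all genes were called. At an unadjusted p under 0.05, 19 of the 38 were lower and 0 higher. The median was -0.91, against -0.05 over all genes. For pylorus against colon 0 passed lower and 0 higher at an adjusted p under 0.05, where 0.225% of all genes were called. Unadjusted, 14 were lower and 0 higher, and the median was -0.63. The unadjusted share over all genes is not given for either contrast, so the counts of 19 and 14 have no background beside them. With the replicate block the count for pylorus against colon was 2. Ncl had a difference of differences of -1.14 ± 0.36 for pylorus against small intestine (adjusted p = 0.318) and -1.02 ± 0.32 for pylorus against colon (adjusted p = 0.237). The fit over all 42 arrays called 1 gene lower for pylorus against small intestine and 4 for pylorus against colon.

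The Lgr5Hi cells themselves differed between organs. Pyloric against small intestinal Lgr5Hi cells had 16 genes lower and 0 higher of 38, against 7.74% of all genes lower and 4.67% higher. All 38 were below 0 (median -0.99, all genes 0.08), without overlap for 34 against 16.9% of all genes. Nop56 measured 6.47, 6.73, 7.07 and 6.89 in pyloric arrays against 8.78 and 8.46 in small intestinal arrays, and Gnl3 7.65, 7.07, 7.47 and 7.07 against 9.44 and 8.60. The organs stood clearly apart for both, and the genes were 3.56-fold lower (adjusted p = 4.27e-05) and 3.27-fold lower (adjusted p = 0.000328) in pylorus. Of the 6 snoRNP genes 5 were lower, as were Polr1a (-1.05 ± 0.34, adjusted p = 0.0458) and Polr1b (-1.12 ± 0.28, adjusted p = 0.0105). Dkc1, Utp20, Ddx10, Nhp2, Wdr12 and Heatr1 fell by 1.36, 1.31, 1.31, 1.29, 1.23 and 1.20. Ncl and Npm1 differed by -0.70 ± 0.25 and -0.60 ± 0.21 and did not pass (adjusted p = 0.0794 and 0.0685). The count was 6 without small intestine Lgr5Hi replicate 1 and 7 without replicate 2. Cell cycle genes were lower in pylorus as well, 14 of 20 G1/S and 19 of 21 G2/M genes, with G2/M means of 6.14 to 6.61 in pyloric Lgr5Hi arrays against 8.16 and 8.19 in small intestinal ones, and their part in the result was not tested. Organ and any preparation that went with it cannot be told apart.

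Against colon Lgr5Hi cells, pyloric Lgr5Hi cells had 7 lower and 0 higher, against 4.22% of all genes lower and 2.9% higher (median -0.49). The arrays parted downward for 17 genes, against 9.06% of all genes. Utp20, a processome component, measured 4.73, 5.37, 4.64 and 5.31 in pyloric arrays against 6.51, 6.45 and 6.85 in colon arrays. The gap between the organs was wider than the spread in either, and it fell by 1.59 ± 0.27 (adjusted p = 0.000482). Ddx10, Gnl3, Dkc1, Noc4l, Heatr1 and Npm1 fell by 1.25, 0.99, 0.88, 0.84, 0.77 and 0.63. The count was 2 without colon Lgr5Hi replicate 1 or 3 and 4 without pyloric Lgr5Hi replicate 4. Here 7 of 20 G1/S and 14 of 21 G2/M genes were lower in pylorus, with G2/M means of 6.14 to 6.61 in pyloric against 7.45 to 8.04 in colon Lgr5Hi arrays, and their part in the result was not tested. Between small intestine and colon Lgr5Hi cells 1 gene was higher and 0 lower, against 1.32% of all genes higher and 1.28% lower. The arrays parted upward for 23 genes (median 0.44), against 16.7% of all genes. The call was Nop56, with 8.78 and 8.46 in small intestine against 7.10, 7.49 and 7.64 in colon, a difference of 1.21 ± 0.27 (adjusted p = 0.014), and it was lost without either small intestine array or without colon replicate 1. These 3 contrasts share arrays.

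Lgr5Lo cells of pylorus were set against those of small intestine and of colon. For pylorus against small intestine 0 genes were lower and 0 higher in limma, against 8.17% of all genes called, with 1 lower and 0 higher unadjusted. The median of -0.10 turned to 0.058 under quantile normalization, 0.11 without pyloric Lgr5Lo replicate 3 and 0.14 without small intestine Lgr5Lo replicate 2, and was -0.30 without small intestine Lgr5Lo replicate 1. For pylorus against colon 1 was lower and 0 higher, against 3.78% of all genes lower and 2.57% higher. The median was 0.14, or 0.42 without pyloric Lgr5Lo replicate 3 and 0.22 without colon Lgr5Lo replicate 1. The gene was Utp20 again, with 5.11, 5.75, 5.10 and 5.93 in pyloric arrays against 6.90, 6.55 and 6.67 in colon arrays and a fall of 1.24 ± 0.27 (adjusted p = 0.00606). Its arrays did not overlap, and it was called lower in pylorus than in colon in Lgr5Hi and in Lgr5Lo cells alike.

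Other genes of ribosome production moved the same way in the DTR line. Of 113 further ribosome biogenesis genes 61 fell and 0 rose between Lgr5Hi and Lgr5Neg cells (median -0.56), while 9.48% of all genes fell and 8.84% rose. Among them were Lyar (-1.13), a nucleolar zinc finger protein, the processome gene Utp11 (-1.23), Aatf (-1.14) and the exosome subunit gene Exosc8 (-1.18). Cytosolic ribosomal protein genes fell for 30 of 59 (median -0.45), with Rpl17 at -1.87 and Rps24 at -1.02. Mitochondrial ribosomal protein genes, whose products work outside the nucleolus, fell for 45 of 71 and rose for 1 (median -0.65), with Mrps22 at -1.57. Of 78 snoRNA genes 18 fell and 2 rose, and of 14 snoRNA host genes 8 fell, with Snhg1 at -1.44, and 1 rose, Snhg18 at 1.93. Cell cycle genes were lower too, with 19 of 20 G1/S genes (median -1.34) and 21 of 21 G2/M genes (median -1.52) called. The G2/M mean was 5.93 to 6.84 in Lgr5Hi arrays against 7.79 to 8.21 in Lgr5Neg arrays.

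**Figure D4:**
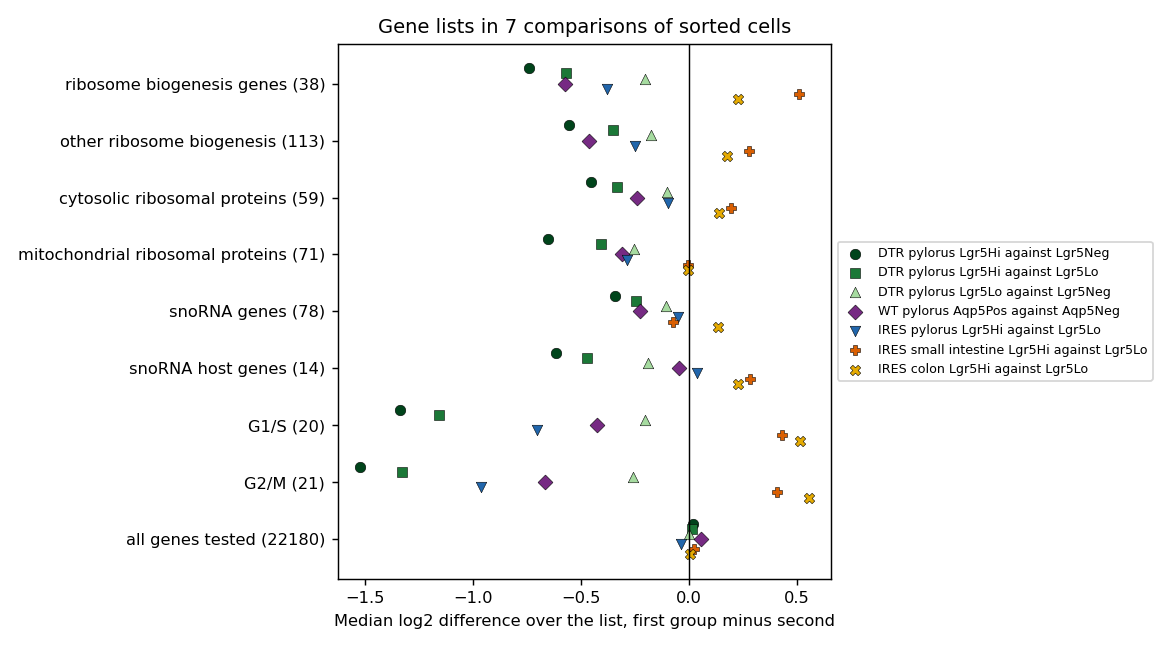
Median log2 difference (horizontal axis) over each of 8 gene lists and over all genes (rows, with the number of genes measured), first group minus second, in 7 comparisons of sorted cells (symbols). For the ribosome biogenesis genes the 5 pyloric medians lie between -0.74 and -0.21, and those of small intestine and colon at 0.51 and 0.22.

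The medians of both cell cycle lists had the same sign as the 38 genes in each of these 7 contrasts. In WT pylorus 9 of 113 further biogenesis genes fell in Aqp5Pos cells, led by Exosc8 (-1.43), against 2.25% of all genes. There 1 of 20 G1/S and 4 of 21 G2/M genes fell, with medians of -0.43 and -0.67. In the IRES pylorus 4 and 7 fell in Lgr5Hi cells, with medians of -0.70 and -0.96. Of the 113 further biogenesis genes there, 1 was called lower, Utp11 (-0.94), and 1 higher, Utp18 (0.85). These counts were near the shares over all genes, 0.884% lower and 0.604% higher. The difference was below 0 for 88 of the 113 (median -0.25). At an unadjusted p under 0.05, 27 were lower and 1 higher, against 1747 lower and 1237 higher of 22180 genes. In small intestine and colon the medians were 0.43 and 0.51 for G1/S and 0.40 and 0.55 for G2/M, with 0 genes called in limma. At an unadjusted p under 0.05 the small intestine had 2 G1/S and 0 G2/M genes higher, and the colon 6 and 5. The part of the share of dividing cells in the ribosome biogenesis values was not tested.

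Of 13 genes of the Myc network 4 rose and 2 fell between DTR Lgr5Hi and Lgr5Neg cells. Myc itself measured 5.42, 6.02 and 5.93 in Lgr5Hi arrays, 6.94, 7.20 and 7.31 in Lgr5Lo arrays and 7.28, 7.13 and 7.37 in Lgr5Neg arrays. The Lgr5Hi arrays lay below all others, and Myc fell by 1.47 ± 0.17 against Lgr5Neg cells (adjusted p = 7.61e-05). Mxd4 and Mnt, which are known to repress Myc targets, rose by 1.40 and 0.50 (adjusted p = 0.000132 and 0.024), and Mycn rose by 0.65 (adjusted p = 0.00653). Mycn was low, at 4.26, 3.93 and 4.39 in Lgr5Hi arrays against 3.58, 3.58 and 3.48 in Lgr5Neg arrays. Array medians of the series were 3.82 to 4.25. In WT Aqp5Pos cells Myc differed by -0.69 ± 0.23 (adjusted p = 0.126), with 6.88, 6.68, 7.27 and 7.33 in Aqp5Pos arrays against 8.01, 8.09, 7.36 and 7.46 in Aqp5Neg arrays. In Lgr5Hi cells of the IRES line Myc did not exceed 6.57 in pylorus, against 8.10 and 8.29 in small intestine, and was 3.72-fold lower in pylorus (adjusted p = 0.000241). The IRES pyloric Lgr5Lo arrays had Myc at 5.78, 6.92, 6.62 and 7.02, so they overlapped with the pyloric Lgr5Hi arrays. Between these Lgr5Hi and Lgr5Lo cells 0 of the 13 network genes fell in limma and 1 rose. At an unadjusted p under 0.05, 0 were lower and 3 higher, so Myc was not called lower there.

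Some genes for snoRNAs and their hosts differed between sorted cells of the organs. In Lgr5Hi cells 10 of 14 host genes were lower in pylorus than in small intestine, with a median of -2.06, and 17 of 78 snoRNA genes were lower. The snoRNA mean was 4.24 to 4.76 in pyloric Lgr5Hi arrays against 5.68 and 5.02 in small intestinal ones, where replicate 1 was the higher, and in unsorted tissue it was 5.00 and 4.88 in whole pylorus against 4.79 in the array labelled whole small intestine and 4.48 and 4.32 in those labelled crypt. Snhg5 and Snhg1 were 6.49-fold and 4.81-fold lower (adjusted p = 6.10e-05 and 0.000394). Lgr5Lo cells had 8 host genes lower in pylorus than in small intestine (median -1.21), where none of the 38 protein genes passed and 4.43% of all genes were lower. The host gene mean was 7.86 and 6.81 in small intestine Lgr5Lo arrays, so replicate 1 was the higher in both sorted groups. Between small intestine and colon Lgr5Hi cells 6 host genes and 8 snoRNA genes were higher, against 1 of the 38 and 1.32% of all genes. The 2 small intestine Lgr5Hi arrays scattered widely for some of these RNAs, as for Snord52, with a mean of 3.35 ± 0.61 in pylorus and 6.42 ± 1.25 in small intestine (SD, n = 4 and 2).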

How the data were processed

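RNA of 42 samples was measured on Affymetrix arrays. The deposited values are log2 intensities after RMA, which the submitters' processing notes name together with oligo, limma 3.26.8, R 3.2.3 and Partek. They covered 41345 probe sets, and array medians were 3.82 to 4.25. Scanner files and detection calls were not used here, so low signals have no background limit, and the number of arrays limits precision. Symbols came from the platform annotation: 23521 probe sets had 1 symbol, 1814 several and 16010 none, giving 22180 genes. Each mouse model was fitted alone in limma 3.58.1 (R 4.3.3), with 1 mean per group and eBayes. P-values were adjusted by Benjamini-Hochberg across the 22180 genes, and genes with an adjusted p under 0.05 were called. The code was tested on simulated data. The labels do not say which replicates share an animal, so p-values measure the spread between arrays. The members, the lists and the rule were chosen with earlier results of these data known. The rule named Ncl, Npm1, Polr1a and Polr1b, the 8 largest called changes in each direction, and up to 4 genes of each other list. Other members named were chosen after their values were seen. Same-numbered arrays deviated together in the IRES pylorus (r = 0.16, 0.10, 0.27 and 0.30) and colon (r = 0.18, 0.14 and 0.24). Between DTR Lgr5Hi and Lgr5Neg arrays the values were lower but all positive (r = 0.10, 0.061 and 0.12). In the DTR contrasts with Lgr5Lo cells and in WT they were mixed in sign, between -0.11 and 0.17.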

Additional observations from a re-analysis of the deposited data

Results flagged for a closer look

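Each of the 38 genes, and their mean, was looked at in every group of 4 arrays. Of these 156 sets 10, all of single genes, held an array far from the other 3, where chance gives about 1 in 20. All lay in the IRES pylorus. Lgr5Lo replicate 3 was the low array for Mybbp1a (5.86), Npm1 (10.52), Nop14 (4.96), Utp15 (4.78) and Nop2 (5.43), and it also had the lowest mean of the 38 genes in its group. Lgr5Lo replicate 2 stood apart for Heatr1 (6.88) and Lgr5Lo replicate 1 for Nop16 (9.02). Among Lgr5Hi arrays, replicate 1 stood apart for Ddx21 (8.65) and replicate 3 for Ddx10 (4.52) and Ddx56 (5.08).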

How the results depend on the processing

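All counts are of the 38 genes called. A fit over all 42 arrays gave 11 lower for DTR Lgr5Hi against Lgr5Neg cells, 1 for Lgr5Hi against Lgr5Lo cells, 6 for the IRES pylorus, 26 for Lgr5Hi pylorus against small intestine, 2 for small intestine against colon, and 1 and 4 for the differences of differences of pylorus against small intestine and against colon. Fitting only the groups compared gave 4 for DTR Lgr5Hi against Lgr5Lo cells and 0 for the IRES pylorus. Trend and robust eBayes gave 19 and brighter genes alone 20 for DTR Lgr5Hi against Lgr5Lo cells, and brighter genes gave 4 for the IRES pylorus. Quantile normalization gave 4 for the IRES pylorus, 1 for WT and 1 for the difference of differences of pylorus against colon. The replicate block gave 5 for the IRES pylorus, 2 for that difference of differences and 3 for WT, where most same-numbered arrays did not deviate together. Leaving out the whole colon 1 array gave 3 for the IRES pylorus. Leaving out single arrays gave 19 to 33 for DTR Lgr5Hi against Lgr5Neg cells, 0 to 15 for Lgr5Hi against Lgr5Lo cells, 0 to 5 for the IRES pylorus, 1 to 7 for WT, 6 to 18 and 2 to 7 for Lgr5Hi pylorus against small intestine and colon, 0 to 1 for small intestine against colon and 0 to 2 for the difference of differences of pylorus against colon. Where it left 1 small intestine array, that array was assumed to vary like the other groups. The block moved no other count by over 1.5 times. The counts for DTR Lgr5Lo against Lgr5Neg cells, for the sort in small intestine and in colon, and for Lgr5Lo cells between organs were the same under every alternative run. The causes were not tested.

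Signs turned for Polr1b between DTR Lgr5Lo and Lgr5Neg cells (0.014 without Lgr5Lo replicate 3 and 0.020 without Lgr5Neg replicate 3, with a lowest value of -0.11 over single arrays left out), for Polr1a in colon (-0.023 without Lgr5Hi replicate 3, with a highest value of 0.51 over single arrays left out) and for Ncl and Npm1 in WT under quantile normalization (0.0022 each). Quantile normalization also moved the calls over all genes to 257 higher and 219 lower in the IRES pylorus, against 134 and 196, and to 156 and 254 in WT, against 121 and 500.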
